A study of Mus musculus with 23 samples.

Results

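Cytosolic ribosomal protein genes were examined in 23 RNA sequencing libraries from mouse hearts. Members were all features whose symbol is Rpl or Rps with a number and at most a trailing a, x or l, together with Rplp0, Rplp1 and Rplp2, and pseudogene symbols were not taken. The rule found 79 of 43154 features, 48 of the large subunit and 31 of the small subunit. An FPKM (fragments per kilobase of transcript and library size, a level per length) of at least 1 in at least 3 libraries was reached by 77 members, 46 large and 31 small. Rpl10l, listed at 0 in all 23 libraries, and Rpl39l, with a mean of 0.27 FPKM, did not reach it.

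The hearts were from C57BL/6 mice, either wild type (WT) or transgenic for calcineurin (CnATg, expressed from an MHC promoter, which is active in cardiomyocytes), given either vehicle or JIB-04, a small molecule that blocks Jumonji-type histone demethylases, at 50 mg/kg on 3 days a week. At day 45 there were 3 libraries for each genotype with each treatment. At day 77 there were 3 of WT JIB-04 and 4 each of CnATg vehicle and CnATg JIB-04, and a WT vehicle group of that age was not analysed here. Treatment began in week 4 for the day 45 groups and in week 5 for the day 77 groups, with no week given for WT JIB-04, so age and treatment schedule cannot be told apart. The study's design text speaks of WT mice with vehicle only, whereas the sample labels place 6 WT libraries under JIB-04, and the labels were followed. Those libraries were deposited apart from the others, so a difference in handling and the group cannot be told apart. The labels do not say that each library came from a separate animal, and p-values measure the spread between libraries.

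Ribosomal proteins coat and order the ribosomal RNAs of the large and the small subunit, and most are present in 1 copy in each ribosome. In mammals their mRNAs begin with a pyrimidine-rich stretch through which mTOR signalling controls their translation. The heart and skeletal muscle also carry Rpl3l, a muscle form of Rpl3, the large-subunit protein that reaches the peptidyl transferase centre. Calcineurin is a phosphatase that sends NFAT factors to the nucleus, and its transgene in the mouse heart is a standard model of severe cardiac hypertrophy.

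The libraries carried heart muscle RNA: all 10 cardiomyocyte markers were detected, with a summed level of 19379 to 22392 FPKM in WT and 15907 to 18572 FPKM in CnATg libraries. Mitochondrially encoded transcripts made up 20.8% to 27.1% of the summed FPKM in WT and 15.5% to 17.4% in CnATg libraries, without overlap. These sums leave out 3 mitochondrial features listed at 0 in 13 libraries, which are most WT libraries and a minority of CnATg libraries. Replicate 2 of WT JIB-04 at day 45, not among the 13, had the 20.8% and also the lowest share of members (2.702%). What that failure did to the shares was not tested. Hearts of both sexes were in every group, 9 of the 23 libraries being male by Ddx3y against Xist RNA. The sexes were not balanced between groups. Males were 2 of 3 in WT JIB-04 at day 77 and in CnATg JIB-04 at day 45, and 1 in each other group. Differences below are on the log2(FPKM + 1) scale with their standard error (SE) and a p from limma, adjusted by the Benjamini-Hochberg method over 13212 to 13710 features, and a member is said to rise or fall where that p was under 0.05. Because an FPKM is a share of the library, 3 rescalings were run beside it. Leaving the mitochondrial and hemoglobin features out moved the median genotype difference of all features from 0.07 to 0.16 (vehicle, day 45), from 0.02 to 0.23 (JIB-04, day 45) and from -0.01 to 0.19 (JIB-04, day 77). For the members' medians, and for some members that fell under JIB-04, differences are therefore also given relative to the median of all features. Those members are Rps2, Rpl9 and Rplp0 at both ages and Rpl7a, Rps10 and Rps4x at day 77.

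Ribosomal protein mRNAs were abundant, and the abundance differed between genes. In the large subunit the highest means over 23 libraries were those of Rplp1, a stalk protein that recruits elongation factors, at 802 FPKM (661 to 907), Rpl41 at 587 (435 to 654), Rpl36 at 520.4 (471 to 646) and Rpl10, a late-joining protein near the catalytic centre, at 434 (327 to 514). In the small subunit they were those of Rps2, at the mRNA entry channel, at 581 FPKM (501 to 688), Rps24 at 575 (495 to 656), Rps15 at 521 (463 to 584) and Rps9 at 444 (384 to 500.5). Rplp1 lay above every other member in all libraries, while the ranges of Rpl41, Rps2 and Rps24 overlapped. The lowest were Rps4l at 33.2 FPKM (22.8 to 42.8), Rpl39 at 92.5 (62.3 to 110.4), Rpl37 at 93.5 (71.0 to 105.4) and Rps20 at 103 (83.9 to 123). Rps4l is annotated as a transcribed processed pseudogene in GENCODE M21, and the other 76 members past the filter are protein-coding. For 55 members the files hold features named as their pseudogenes, 236 in all, so reads of these genes may have been divided among near-identical copies and their levels are uncertain to that extent.

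The median level of the members overlapped between genotypes, while their share of the summed FPKM did not. The median over large-subunit members was 235 to 298 FPKM in the 9 WT libraries and 241 to 269.8 in the 14 CnATg libraries, and the small-subunit median was 243 to 311 and 251 to 299, so the genotypes overlapped in both. The summed FPKM of the members also overlapped, at 19307 to 24406 in WT and 20087 to 23467 in CnATg libraries (mean 22322 and 21771). Members took 2.702% to 3.30% of the summed FPKM of all features in WT and 3.44% to 3.98% in CnATg libraries, higher in every CnATg library. With mitochondrial and hemoglobin features left out of the sum these shares became 3.43% to 4.38% and 4.12% to 4.86%, which overlap.

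**Figure D1:**
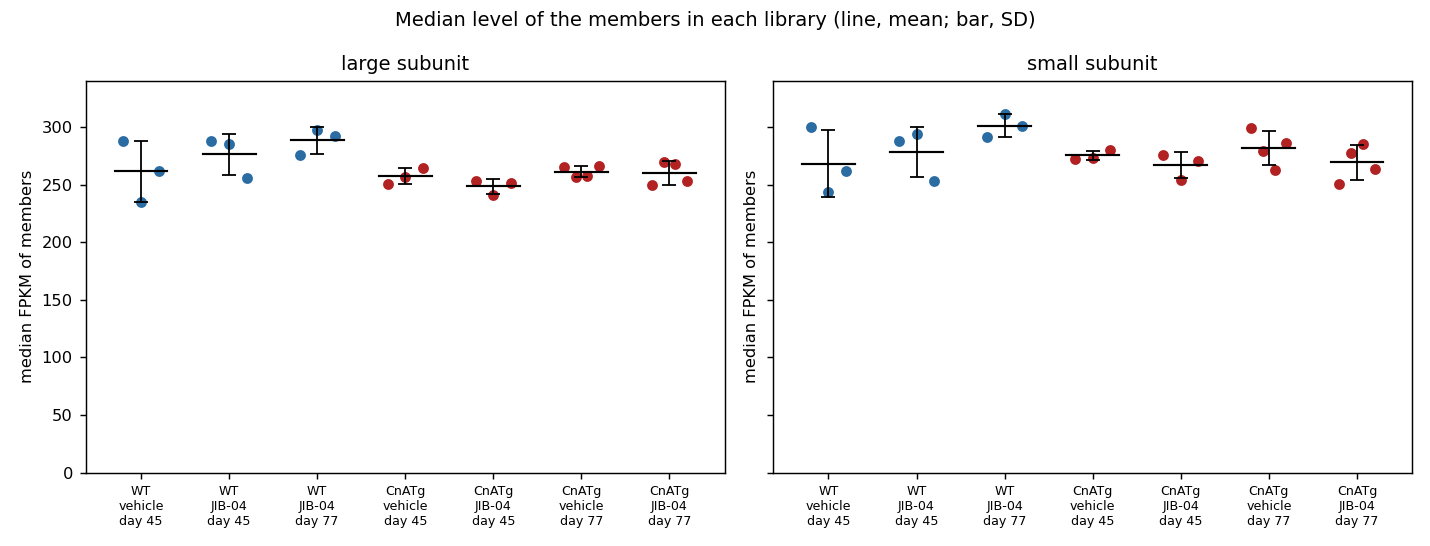
Median FPKM of the 46 large-subunit (left) and 31 small-subunit members (right) in each library, by group; points are libraries, lines are means and bars are SD. WT libraries (blue) run from 235 to 298 FPKM for the large subunit and overlap the CnATg libraries (red) at 241 to 269.8.

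Rpl3 and its muscle form Rpl3l moved in opposite directions. Rpl3l (chr17:24727820-24736143, plus strand, GRCm38, 10 coding exons) was high in every WT library: 196, 178 and 208 FPKM with vehicle at day 45, 183, 181 and 201 with JIB-04 at day 45, and 249, 247 and 209 with JIB-04 at day 77. In CnATg hearts it was 72.6, 57.6 and 76.3 FPKM with vehicle and 56.1, 63.4 and 59.0 with JIB-04 at day 45. At day 77 it was 79.5, 44.4, 73.6 and 65.4 FPKM with vehicle and 72.4, 60.3, 64.0 and 52.0 with JIB-04. Every CnATg library lay below every WT library. Rpl3l fell in all 3 genotype comparisons, with a difference of -1.49 with vehicle at day 45 (SE 0.10, adjusted p = 7.63e-07, 2.80-fold lower), -1.65 with JIB-04 at day 45 (SE 0.10, adjusted p = 3.48e-07, 3.13-fold) and -1.91 with JIB-04 at day 77 (SE 0.17, adjusted p = 7.66e-06, 3.75-fold). It had the largest absolute genotype difference of the 77 members in each of these comparisons. In bulk RNA, fewer cells that express a gene and less of its RNA per cell cannot be told apart.

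Rpl3 (chr15:80077794-80091868, minus strand, GENCODE M21 locus on GRCm38) was the mirror image. Its WT values were 118, 109 and 102 FPKM with vehicle at day 45, 124, 106 and 97.6 with JIB-04 at day 45, and 113, 101 and 122 with JIB-04 at day 77. CnATg hearts had 179, 177 and 186 FPKM with vehicle and 179, 164 and 171 with JIB-04 at day 45. At day 77 they had 181, 185, 162 and 182 FPKM with vehicle and 162, 187, 178 and 179 with JIB-04. Again the genotypes did not overlap, now with CnATg on top. Rpl3 rose by 0.71 (SE 0.08, adjusted p = 4.38e-05), 0.65 (SE 0.08, adjusted p = 8.95e-05) and 0.65 (SE 0.07, adjusted p = 3.70e-05) in the 3 genotype comparisons, 1.57- to 1.64-fold. Both genes kept their call and direction under every scaling, covariate and left-out library tried, with an adjusted p of at most 0.00098 for Rpl3.

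The level of Rpl3l was 1.48 to 2.44 times that of Rpl3 in WT libraries and 0.241 to 0.454 times in CnATg libraries. Rpl3l thus made up 59.6% to 70.9% of the FPKM of the pair in WT and 19.4% to 31.2% in CnATg hearts. The summed level of the pair was 287 to 363 FPKM in WT and 228 to 263 in CnATg libraries, also without overlap. The ratio, which no library scaling touches, was 4.66-fold lower in CnATg with vehicle at day 45, 4.98-fold lower with JIB-04 at day 45 and 5.99-fold lower with JIB-04 at day 77. Exact two-sided permutation p-values were 0.10, 0.10 and 0.0571, each the smallest that the group sizes allow, and 0.20 for each after adjustment over 6 tests. JIB-04 moved the log2 ratio by -0.12 in CnATg and -0.03 in WT hearts at day 45 and by -0.05 in CnATg hearts at day 77, with exact permutation p-values of 0.40, 1.0 and 0.857 (adjusted 0.60, 1.0 and 1.0). In each WT group the male libraries had the highest ratios, at 2.03 to 2.44 against 1.48 to 1.71 in female WT libraries. In CnATg hearts the sexes overlapped, at 0.314 to 0.454 in male and 0.241 to 0.440 in female libraries. The part of sex in the ratio differences was not tested.

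**Figure D2:**
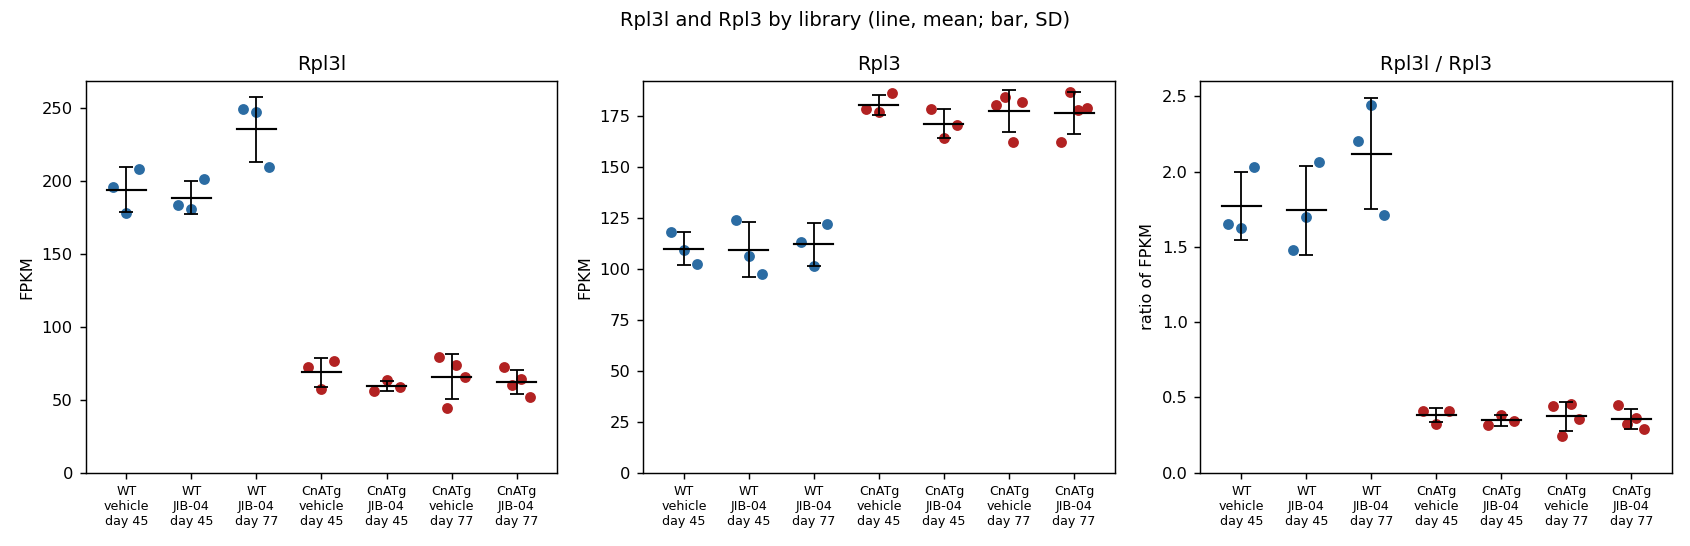
FPKM of Rpl3l (left) and Rpl3 (middle) and the ratio of the levels (right) in each library, by group; points are libraries, lines are means and bars are SD. CnATg libraries (red) lie below all WT libraries (blue) for Rpl3l (44.4 to 79.5 against 178 to 249 FPKM) and above them for Rpl3.

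The pseudogene features of Rpl3, 2 in number, moved with it, with a sum of 16.6 to 21.3 FPKM in WT and 28.0 to 38.5 in CnATg libraries. No feature is named as a copy of Rpl3l. Of the other forms with a trailing l, Rps27l, a form of the small-subunit protein Rps27, was at 112 to 148 FPKM. Rps27l differed by 0.14 with vehicle at day 45, where all CnATg libraries lay above WT (adjusted p = 0.053), by 0.04 with JIB-04 at day 45 (adjusted p = 0.62) and by 0.13 with JIB-04 at day 77 (adjusted p = 0.27). Its parent Rps27 differed by -0.02, -0.16 and -0.24 (adjusted p = 0.91, 0.37 and 0.091). Rps4l and its parent Rps4x differed by 0.09 and 0.00 with vehicle at day 45 (adjusted p = 0.80 and 0.99). Rpl10l and Rpl39l, forms of Rpl10 and Rpl39 known from the testis, were near or at 0 as given above.

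Sequence before the start site is shown for 3 members that differ in their genotype pattern. They are Rpl3l, lower in CnATg, Rpl10, higher in CnATg, and Rplp0, the base of the ribosomal stalk, lower in CnATg with a call only under JIB-04. Each line holds the 250 bases before the RefSeq start on GRCm38.p6, 5′ to 3′ on the gene's strand, with CANNTG (an E-box, bound by basic helix-loop-helix factors) and CTTTCC (a pyrimidine tract) in capitals. Rpl3l, at the upstream of its 2 RefSeq starts, is chr17:24727576-24727825 (plus), Rpl10 is chrX:74270566-74270815 (plus) and Rplp0 is chr5:115559217-115559466 (plus).
Rpl3l: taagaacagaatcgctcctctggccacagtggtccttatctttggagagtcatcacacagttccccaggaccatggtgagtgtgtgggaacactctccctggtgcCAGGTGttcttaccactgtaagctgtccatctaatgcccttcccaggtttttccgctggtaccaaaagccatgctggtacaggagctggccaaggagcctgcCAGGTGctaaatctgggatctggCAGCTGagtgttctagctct
Rpl10: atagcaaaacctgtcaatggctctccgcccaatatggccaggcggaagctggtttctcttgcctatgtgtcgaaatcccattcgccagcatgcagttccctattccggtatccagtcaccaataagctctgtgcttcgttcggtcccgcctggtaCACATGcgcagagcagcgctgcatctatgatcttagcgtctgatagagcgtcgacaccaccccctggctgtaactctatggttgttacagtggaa
Rplp0: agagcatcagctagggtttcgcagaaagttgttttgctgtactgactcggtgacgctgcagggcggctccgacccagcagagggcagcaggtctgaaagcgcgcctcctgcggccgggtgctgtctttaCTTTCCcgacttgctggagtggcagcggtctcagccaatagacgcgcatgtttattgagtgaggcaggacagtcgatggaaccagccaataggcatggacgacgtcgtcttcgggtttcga
The Rpl3l stretch holds 3 E-boxes and no CTTTCC, the Rpl10 stretch 1 E-box, and the Rplp0 stretch 1 CTTTCC and no E-box. RefSeq windows, 250 bases before to 50 after the start, matched 56 of the 77 members (68 windows). E-boxes were in 52.9% of these windows and in 72.3% of all 32851 windows. CTTTCC, searched on the gene's strand, was in 38.2% and 14.1%, and the ETS-type letters CCGGAAG on either strand were in 35.3% and 8.86%. GGAAA, the core that NFAT factors bind, was on either strand in 80.9% and 61.3%; each CTTTCC holds it on the opposite strand. These counts describe letters and not binding. The GC content was 40.7% to 75.3% in member windows (median 58.2%) and had a median of 52.7% in all windows.

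Apart from Rpl3 and Rpl3l, few members differed between genotypes with vehicle at day 45. Of 77 members 3 rose (Rpl3, Rpl10 and Rps13), against 23.3% of all 13289 features, and Rpl3l alone fell, against 15.9%. The share of members called was thus 3.90% upward and 1.30% downward, below that of all features in both directions. Their median difference was 0.07, as in all features (0.07). The groups did not overlap for 8 members higher in CnATg and 3 lower, against 29.7% and 19.9% of all features. Without Rpl3 and Rpl3l, the other 75 members spanned -0.17 to 0.40, a range of 0.57. The upward count moved with single libraries: 13 members rose without replicate 1 of WT vehicle and 2 without replicate 2. The shares of all features without these libraries are not given, so the counts are not a result about the members alone.

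Rpl10 had 392, 328 and 363 FPKM in WT and 466, 492 and 474 in CnATg hearts with vehicle at day 45. With JIB-04 it had 388, 381 and 327 FPKM in WT and 447, 417 and 470.1 in CnATg hearts at day 45, and 378, 415 and 394 against 432, 506, 487 and 461 at day 77. In each pair of groups all CnATg libraries lay above WT. Rpl10 rose by 0.40 (SE 0.08, adjusted p = 0.0021), 0.29 (SE 0.08, adjusted p = 0.015) and 0.25 (SE 0.07, adjusted p = 0.013). The second call was lost without replicate 3 of WT JIB-04 or of CnATg JIB-04, and the third without replicate 1 of WT JIB-04 (highest adjusted p = 0.060 and 0.054). The 5 pseudogene features of Rpl10 summed to 54.1 to 71.6 FPKM in WT and 72.9 to 97.9 in CnATg libraries.

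Rps13, a small-subunit protein that binds ribosomal RNA early in assembly, had 201 to 273 FPKM over WT (median 243) and 259 to 327 over CnATg libraries (median 284). It rose by 0.34 with vehicle at day 45 (SE 0.10, adjusted p = 0.018) and by 0.20 with JIB-04 at day 77 (SE 0.07, adjusted p = 0.038). With JIB-04 at day 45 the difference was 0.27 (SE 0.10, adjusted p = 0.052). The first call was lost without replicate 2 of either group, and the day 77 call under 10 of 16 settings. The day 77 groups overlapped. The 7 pseudogene features of Rps13 summed to 84.4 to 132 FPKM in WT and 117 to 173 in CnATg libraries.

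With JIB-04 the genotype comparison leaned downward. At day 45, 2 members rose (Rpl3 and Rpl10; 20.5% of all features) and 7 fell (9.09%; 18.1% of all features): Rpl3l, Rpl9, Rps2, Rplp0, Rpl36, Rpl7a and Rpl24. At day 77, 3 rose (19.9% of all features) and 25 fell (32.5%, against 22.1% of all 13212 features), 18 of the large and 7 of the small subunit. CnATg libraries lay wholly above WT in 3 members and wholly below in 9 at day 45 (27% and 23.5% of all features), and in 2 and 28 at day 77 (21.5% and 23.6%). Besides Rpl3l the largest falls at day 77 were those of Rpl9, Rplp0 and Rpl7a in the large subunit and of Rps2, Rps10 and Rps4x in the small subunit. The medians were -0.07 at day 45 and -0.13 at day 77, against 0.02 and -0.01 in all features. With mitochondrial and hemoglobin features left out, 22 members rose and 1 fell at day 77 (41% and 11.7% of all features), and after quantile normalization 9 rose and 3 fell (20.7% and 21.9%). Relative to all features, the member median was -0.09 and -0.12, with those features left out -0.06 and -0.09, and after quantile normalization -0.0043 and 0.02. At day 45, 15 rose and 1 fell with those features left out (38.4% and 7.57% of all features). Rpl36, Rpl7a and Rplp0, which had fallen, then changed sign. The day 45 count of falls was 2 without replicate 2 of CnATg JIB-04, 3 without replicate 1 or 2 of WT JIB-04 and 12 without replicate 3 of WT JIB-04. Here too the shares of all features without these libraries are not given.

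Rps2 with JIB-04 had 688, 685 and 609 FPKM in WT and 549.7, 501 and 544 in CnATg hearts at day 45, and 632, 670.4 and 674 against 504, 543, 535 and 517 at day 77. The groups did not overlap at either age. Rps2 fell at both ages, with differences of -0.31 (SE 0.07, adjusted p = 0.0042) and -0.33 (SE 0.05, adjusted p = 0.00039). With vehicle at day 45 Rps2 had 674, 576 and 594 FPKM in WT and 548, 557 and 558 in CnATg hearts, a difference of -0.15 (adjusted p = 0.12) without overlap. Both calls ended with mitochondrial and hemoglobin features left out (-0.06 and -0.10), the direction being kept. Relative to all features Rps2 lay at -0.33 and -0.32, and at -0.29 at both ages with those features left out. The 7 pseudogene features of Rps2 summed to 92.7 to 129 FPKM in WT and 85.4 to 112 in CnATg libraries.

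Rpl9, at the base of the large subunit's stalk region, had 302, 298 and 255 FPKM in WT and 228, 216 and 223 in CnATg hearts with JIB-04 at day 45. At day 77 it had 290.2, 312 and 307 FPKM in WT and 217, 258, 239 and 225 in CnATg hearts. CnATg lay below WT in both. Rpl9 fell at both ages, with differences of -0.35 (SE 0.10, adjusted p = 0.015) and -0.37 (SE 0.07, adjusted p = 0.0012), against -0.17 (adjusted p = 0.21) with vehicle at day 45. Both calls ended with mitochondrial and hemoglobin features left out (-0.10 and -0.14), and that of day 45 also without replicate 1 or 2 of WT JIB-04 or replicate 2 of CnATg JIB-04. Relative to all features Rpl9 lay at -0.37 and -0.36, and at -0.34 and -0.33 with those features left out. The 7 pseudogene features of Rpl9 summed to 86.0 to 116 FPKM in WT and 72.0 to 99.2 in CnATg libraries.

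Rplp0 had 452, 455 and 417 FPKM in WT and 390.0, 351 and 390.0 in CnATg hearts with JIB-04 at day 45, and 476, 488 and 465 against 357, 392, 387 and 373 at day 77. Here too no CnATg library reached WT. Rplp0 fell at both ages, with differences of -0.23 (SE 0.06, adjusted p = 0.014) and -0.34 (SE 0.05, adjusted p = 0.00041), against -0.13 (adjusted p = 0.13) with vehicle at day 45. The vehicle groups did not overlap either, at 454, 420 and 395 FPKM in WT and 381, 385 and 391 in CnATg hearts. With mitochondrial and hemoglobin features left out the differences were 0.03 and -0.10 and neither passed the test. Quantile normalization also ended both calls, and leaving out replicate 2 of CnATg JIB-04 ended that of day 45. Relative to all features Rplp0 lay at -0.25 and -0.33, at -0.21 and -0.29 with those features left out, and at -0.07 and -0.09 after quantile normalization. Rplp0 has 1 pseudogene feature, at no more than 0.523 FPKM.

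At day 77 with JIB-04, Rpl7a was 345, 341 and 328 FPKM in WT and 256, 298, 279.9 and 279.9 in CnATg hearts. Rps10 was 352, 331 and 339 FPKM in WT and 249, 310.3, 285 and 269 in CnATg hearts, and Rps4x 302, 323 and 309 against 244, 274, 271 and 264. CnATg lay below WT for all 3 genes. All 3 fell, with differences of -0.28 (Rpl7a, adjusted p = 0.0031), -0.29 (Rps10, adjusted p = 0.0054) and -0.24 (Rps4x, adjusted p = 0.0037), each a call that ended with mitochondrial and hemoglobin features left out or after quantile normalization. Relative to all features they lay at -0.27 (Rpl7a), -0.29 (Rps10) and -0.24 (Rps4x), at -0.24, -0.25 and -0.20 with those features left out, and at -0.14, -0.14 and -0.10 after quantile normalization.

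Whether JIB-04 changed the genotype difference was tested at day 45 by the interaction. None of the 77 members passed (adjusted p), and none had an unadjusted p under 0.05, whereas 1 of 13289 features passed (0% higher, 0.00753% lower) and 498 had an unadjusted p under 0.05. The members' median interaction was -0.13 and that of all features -0.04. For Rps2, Rpl9 and Rplp0 it was -0.17, -0.19 and -0.10, with adjusted p = 0.9985 for each. A stronger fall under JIB-04 than under vehicle was therefore not shown.

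Across the 3 genotype comparisons, which share no library, 9 members had a difference above 0 in all and 17 below 0 in all. The call was made in none of them for 49 members. The same counts were not made over all features, so they do not show that the members differ from other genes. Of the 77 members 60 lay within 0.15 of the members' own median in all 3. That count was not made over all features either, so it does not show a trait of the members. Rpl3, Rpl10 and Rps13 lay at least 0.2 above the members' median in all 3. At least 0.2 below that median in all 3 were 2 members, Rpl3l and Rpl9. With a looser limit of 0.15 below, Rps2 and Rplp0 joined them.

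**Figure D3:**
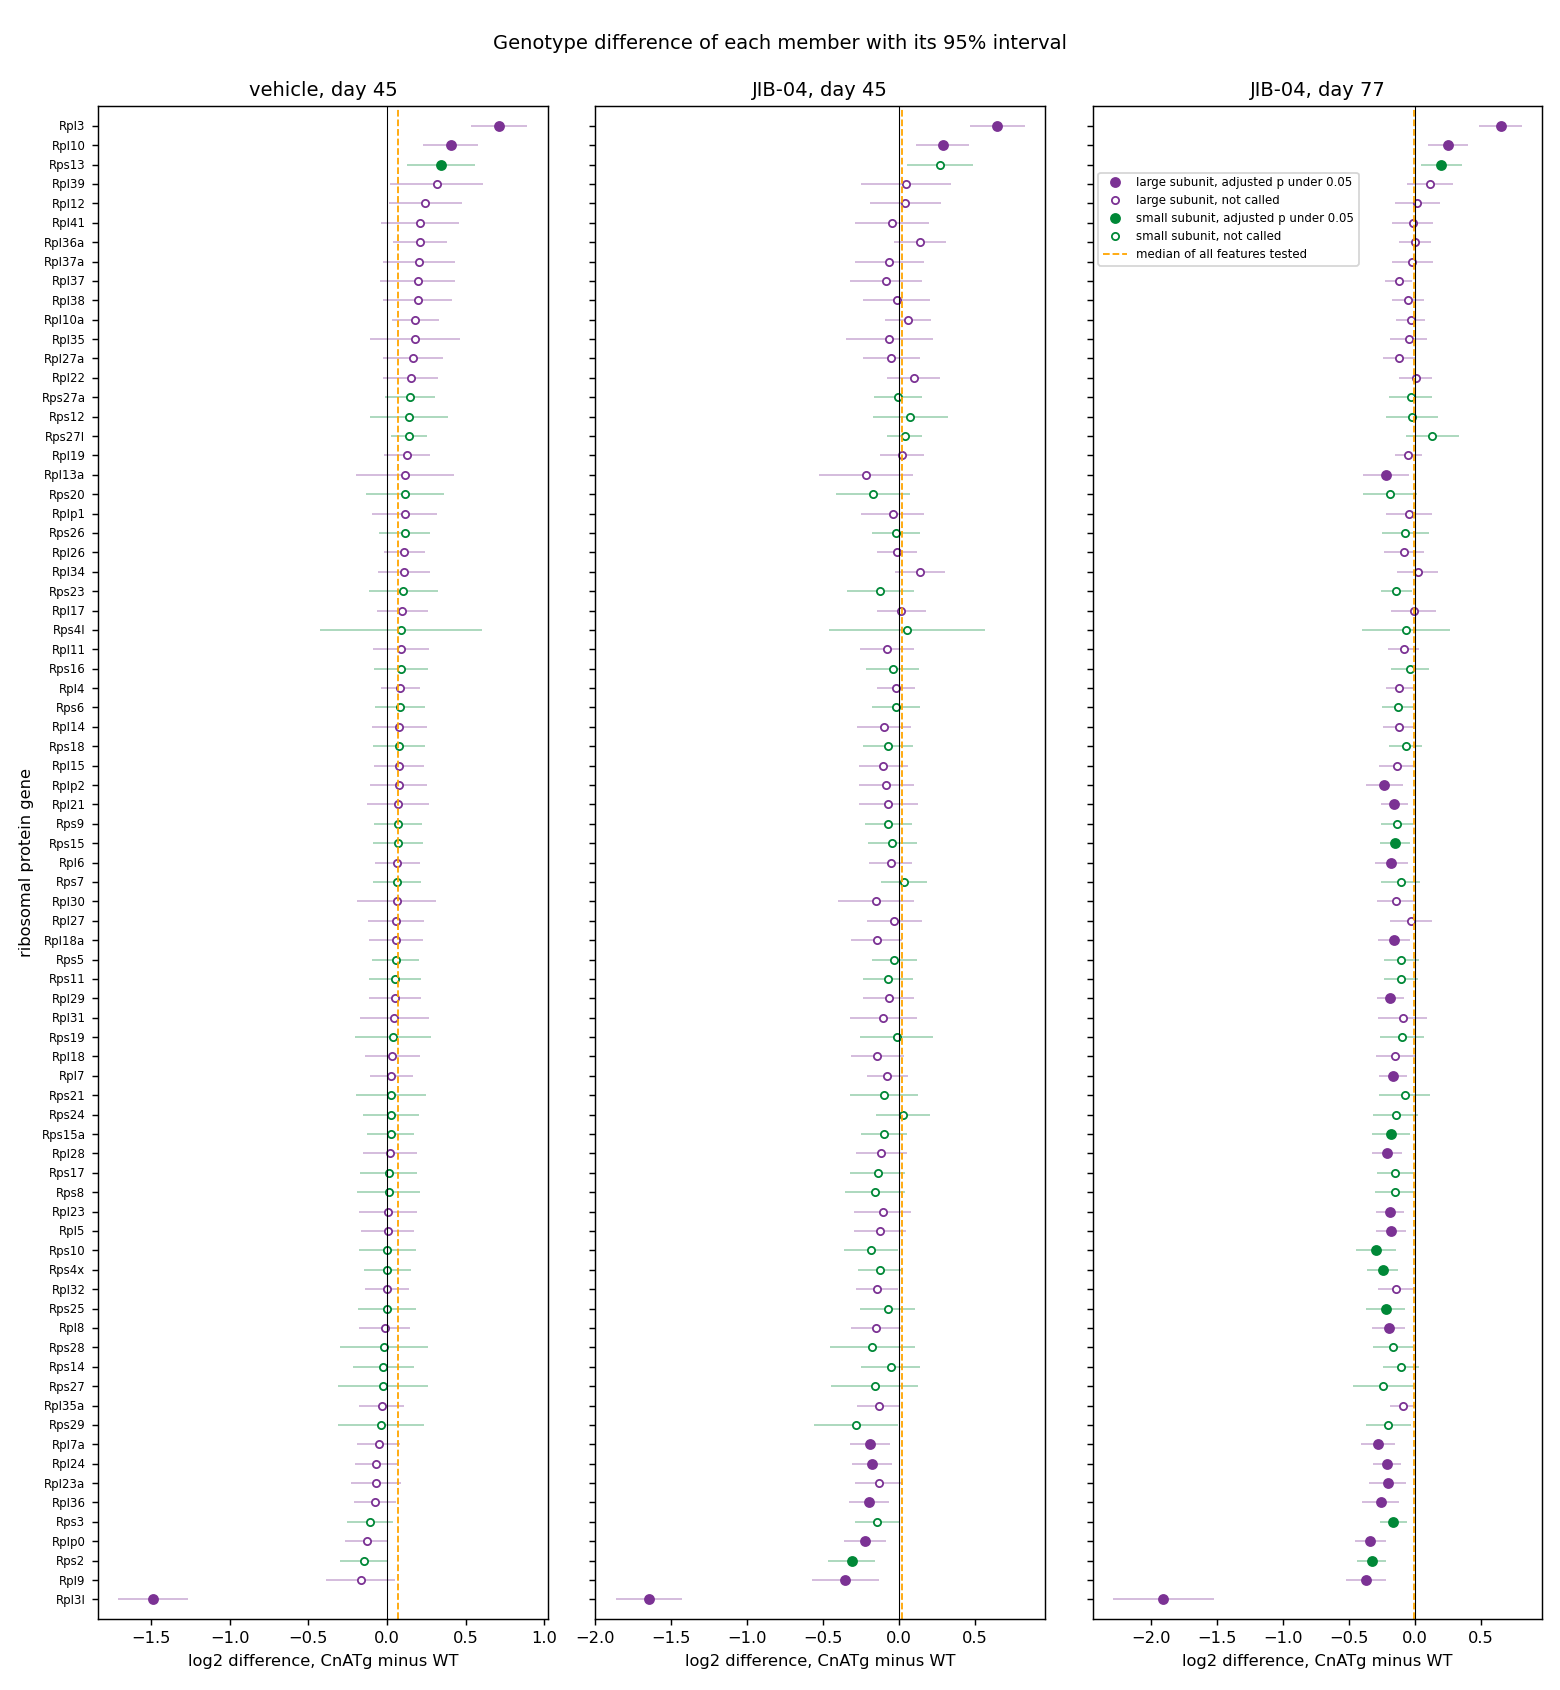
Log2 difference between CnATg and WT hearts for each of the 77 members with its 95% interval, in the 3 genotype comparisons; filled points passed the adjusted test, purple is the large and green the small subunit, and the dashed line is the median of all features. Rpl3 and Rpl10 lie to the right and Rpl3l far to the left in each panel.

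Other cell types' markers moved with genotype beside these differences. With vehicle at day 45, 9 of 10 fibroblast markers rose (median 0.84), 9 of 10 endothelial markers fell (median -0.73), 2 of 8 smooth muscle and pericyte markers rose and 4 fell, 2 of 9 macrophage markers rose, and of 10 cardiomyocyte markers 2 rose and 4 fell (4 rose and 0 fell after quantile normalization). Summed fibroblast markers were 299 to 408 FPKM in WT and 449 to 749.99 in CnATg libraries. Summed endothelial markers were 741 to 887 and 384 to 599, and summed smooth muscle and pericyte markers 209 to 352 and 336 to 634. The last sum was carried by Acta2, singled out after its values were seen, at 31.7 to 134 FPKM in WT and 240.2 to 487 in CnATg libraries. The other 7 markers of that list summed to 178 to 231 in WT and 91.55 to 149 in CnATg libraries, the opposite direction, and the list's median with vehicle at day 45 was -0.42. Macrophage markers, at 213 to 361 and 191 to 374, overlapped, as did the erythroid genes at 1977 to 8220.2 and 1223 to 28307 with no call among 5 tested. Lymphocyte markers summed to at most 6.90 FPKM, and both of the 2 tested fell. No marker was listed at 0 in all libraries. The part of these markers in the differences of the members was not tested.

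JIB-04 moved no member past the threshold within a genotype in limma. In CnATg hearts at day 45 none of 77 rose or fell (0% and 0.00753% of all features), and none had an unadjusted p under 0.05. Yet 74 of 77 lay below 0, all 46 of the large subunit among them, beside 8581 of all 13289 features. The members' median was -0.07 against -0.03 in all features. In 17 of 77 members, such as Rpl27a and Rpl5, the JIB-04 libraries lay wholly below vehicle, against 8.77% of all features. In none did they lie wholly above (2.38%). Rpl27a had 119.7, 119.6 and 134 FPKM with vehicle and 113, 108 and 118 with JIB-04, a difference of -0.14 (95% interval -0.33 to 0.05). The half-width of the 95% interval had a median of 0.18 over members, and changes of the observed size lie inside it.

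In CnATg hearts at day 77 no member rose or fell (0% and 0% of all features) and 4 had an unadjusted p under 0.05 (984 of all features). Of 77 members 71 lay below 0, beside 8062 of 13212 features, with a median of -0.05 against -0.03. Libraries were wholly lower under JIB-04 in 6 members and wholly higher in none (3.75% and 1.18% of all features), led by Rpl13a, which had 386, 349, 388 and 346 FPKM with vehicle and 316, 312, 338 and 336 with JIB-04. Rpl13a differed by -0.17 (95% interval -0.34 to -0.01, adjusted p = 0.65). In WT hearts at day 45 the sign was the other one, with 68 of 77 members above 0, beside 6860 of 13289 features. The median was 0.06 against 0.00, with no call (0% of all features each way) and 1 unadjusted p under 0.05 (576 of all features). The groups overlapped in every member, whereas 3.51% of all features lay wholly higher and 3.98% wholly lower. With mitochondrial and hemoglobin features left out that median was -0.08 against -0.11 in all features. Rpl13a was again the farthest, at 377, 249 and 332 FPKM with vehicle and 402, 429 and 357 with JIB-04, a difference of 0.33 (95% interval 0.02 to 0.64, adjusted p = 1.0) with overlapping groups.

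Rpl3l and Rpl3 under JIB-04 stayed within their spread. In CnATg hearts at day 45 the differences were -0.20 for Rpl3l (95% interval -0.42 to 0.02) and -0.08 for Rpl3 (-0.26 to 0.10), and at day 77 -0.06 (-0.41 to 0.30) and -0.01 (-0.16 to 0.14). In WT hearts at day 45 they were -0.04 (-0.26 to 0.18) and -0.01 (-0.19 to 0.17). These intervals leave room for changes of about that width and do not show that the drug was without effect.

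Between day 45 and day 77 no member rose or fell in any group. With vehicle, CnATg hearts had 63 members above 0 and a median of 0.04 against -0.01 (0.0219% of all features rose and 0.0146% fell), and with JIB-04 67 members and 0.05 against -0.01 (0.0146% and 0.0219%), with no unadjusted p under 0.05 among members in either. Of all 13710 features 6284 lay above 0 with vehicle and 6479 with JIB-04. The ages did not overlap for 1 member with vehicle and 2 with JIB-04, all higher at day 77 (3.33% and 3.57% of all features); none was wholly lower (5.28% and 4.79%). In WT hearts with JIB-04, 69 members lay above 0, beside 7820 of 13710 features, with a median of 0.11 against 0.03. None passed (0.212% of all features rose and 0.117% fell) and 17 had an unadjusted p under 0.05 (2077 of 13710 features). In 20 members of WT hearts the day 77 libraries lay wholly above day 45, against 11.6% of all features, and in none wholly below (5.62%). Rpl3l was the farthest of these, with the FPKM given above, at 0.32 (95% interval -0.02 to 0.65, adjusted p = 0.36). Rps24 came next, with 655.7, 645 and 619.8 FPKM at day 77 against 603, 554 and 495 at day 45, a difference of 0.22 (95% interval 0.05 to 0.40, adjusted p = 0.22). Male libraries were 2 of 3 at day 77 and 1 of 3 at day 45 in these WT JIB-04 groups. In the tests of whether the age difference depended on drug in CnATg hearts or on genotype under JIB-04, no member passed (0% of all features in the first, 0% higher and 0.00729% lower in the second), nor had any an unadjusted p under 0.05.

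**Figure D4:**
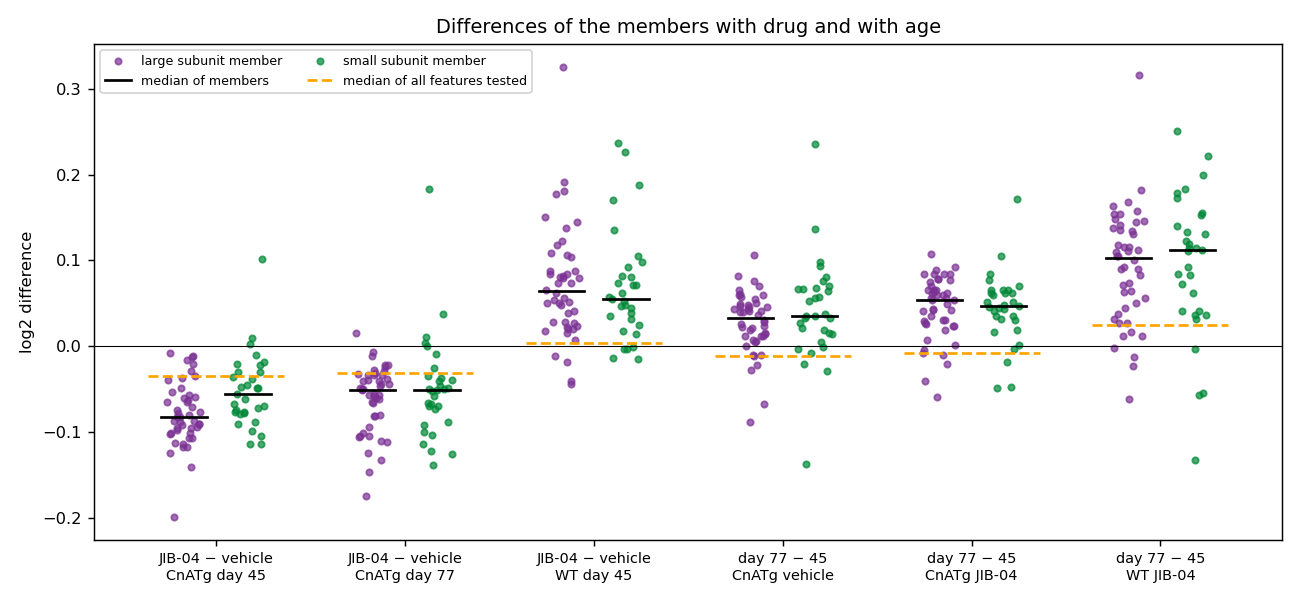
Log2 difference of each member with JIB-04 (left 3 comparisons) and with age (right 3 comparisons); purple points are large-subunit and green points small-subunit members, black lines their medians and dashed lines the median of all features. Medians of the members lie at -0.07 and -0.05 with JIB-04 in CnATg hearts, at 0.06 in WT hearts and above 0 with age.

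Members moved together between libraries of the same group. In replicate 1 of WT vehicle 75 of 77 members lay above their group mean (median deviation 0.15; all features 0.03), and in replicate 2, 74 lay below (-0.13; all features -0.01). In replicate 3 of WT JIB-04 at day 45, 75 lay below (-0.12; all features -0.02). Similar runs were seen in CnATg vehicle at day 77, where 75 members lay above in replicate 1 and 71 below in replicate 3. The counts of members above or below 0 given above come from these same libraries.

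The spread of single genes was small. The median within-group SD on the log2 scale was 0.096 over members, 0.134 over all features and 0.099 over the 2288 features at least as high as the lowest member. It was 0.115 in WT and 0.071 in CnATg libraries. Rps4l (0.29) and Rpl3l (0.21) varied most and Rpl4 (0.059) least. In CnATg vehicle hearts at day 77 Rpl3l ran from 44.4 to 79.5 FPKM.

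**Figure D5:**
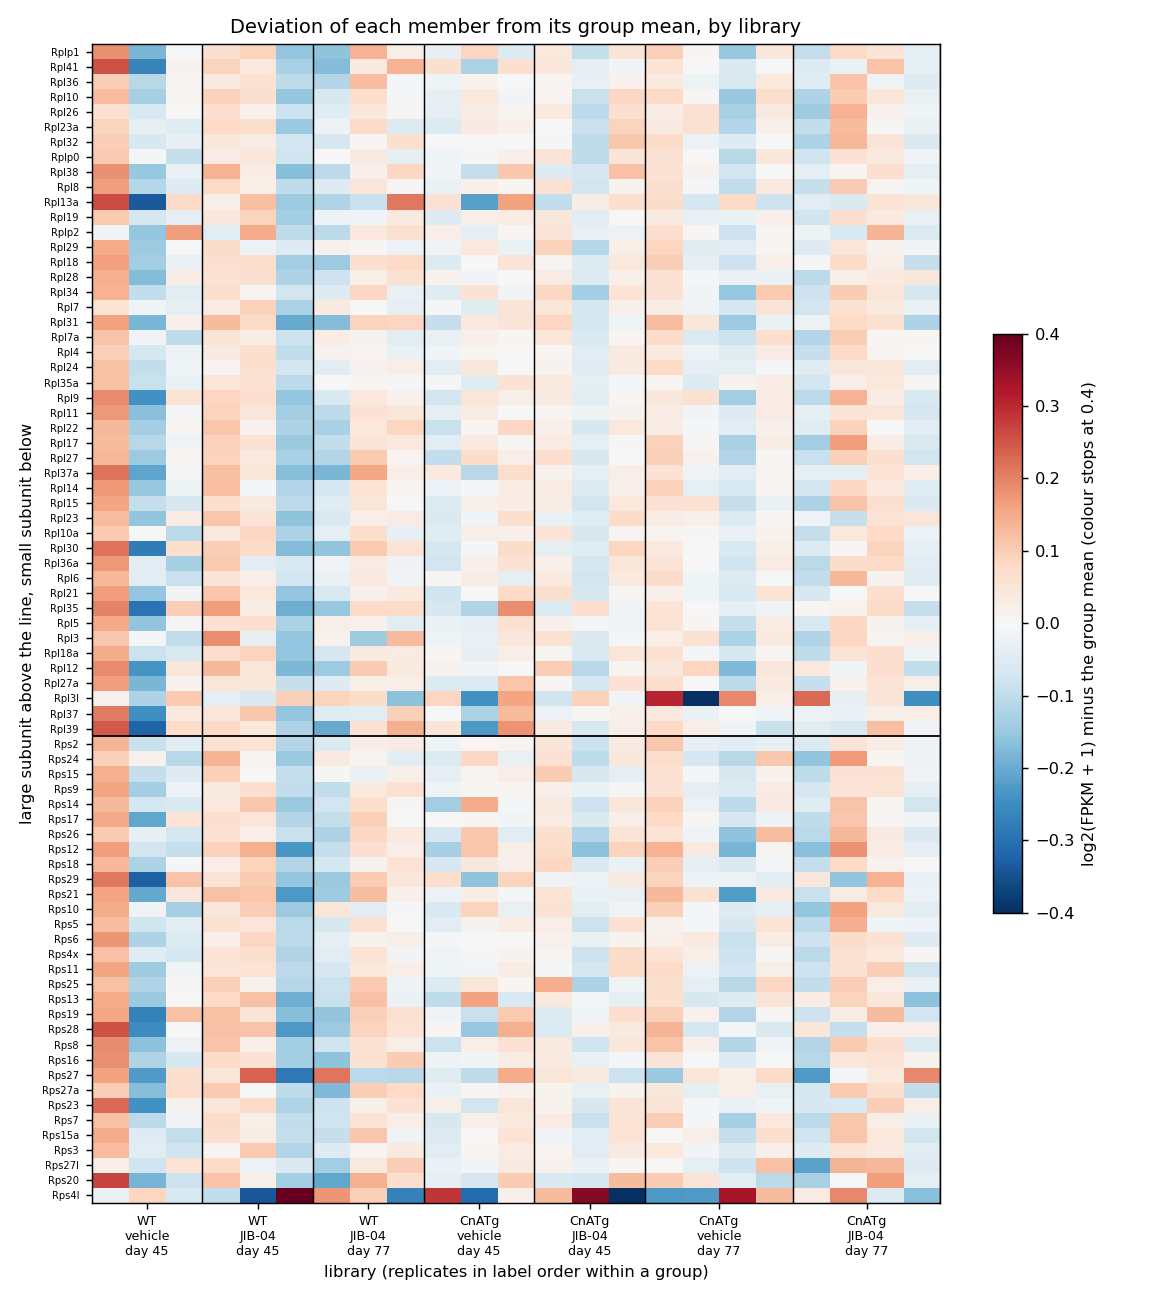
Deviation of log2(FPKM + 1) of each member (rows) from its group mean in each library (columns, grouped); red is above and blue below, and the colour stops at 0.4. Whole columns share a colour, as in the first library of WT vehicle with 75 of 77 members above its group mean, while Rpl3l and Rps4l stand apart.

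Factors that assemble ribosomes rose in number in CnATg hearts. Of 29 ribosome biogenesis genes 14, 12 and 13 rose in the 3 genotype comparisons (vehicle day 45, JIB-04 day 45 and JIB-04 day 77) and 0, 0 and 1 fell, where 23.3%, 20.5% and 19.9% of all features rose and 15.9%, 18.1% and 22.1% fell, with medians of 0.20, 0.18 and 0.18 beside 0.07, 0.02 and -0.01 in all features. With median-ratio scaling or quantile normalization 10 to 14 rose and 1 fell, and with mitochondrial and hemoglobin features left out 16, 22 and 24 rose and 0 fell, where 27.1%, 38.4% and 41% of all features rose. Among the largest were Bysl (0.62, 0.44 and 0.56), Ltv1 (0.57, 0.42 and 0.45) and Tsr1 (0.54, 0.50 and 0.52), all late factors in maturation of the small subunit. Their summed level was 452 to 499 FPKM in WT and 523 to 572 in CnATg libraries, without overlap. Of 14 genes for RNA polymerase I and its factors, which transcribe ribosomal RNA, 3, 4 and 4 rose and 0, 1 and 0 fell. These counts of rises lie near the shares of all features given above for the same fits. After quantile normalization 1, 3 and 4 rose. With mitochondrial and hemoglobin features left out 5, 8 and 11 of the 14 rose, above the 27.1%, 38.4% and 41% of all features. No gene of any of these lists passed the test with JIB-04 or with age.

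Genes that share the pyrimidine-rich mRNA start with ribosomal proteins were divided. Of 16 elongation factors and related genes 6, 5 and 2 rose and 2, 2 and 4 fell, beside the same shares of all features (23.3%, 20.5% and 19.9% up, 15.9%, 18.1% and 22.1% down). Nap1l1, a histone chaperone (0.39, 0.30 and 0.21), and Eif3h, an initiation factor subunit (0.35, 0.32 and 0.20), rose in all 3. Eef1d, an elongation factor subunit (-0.23, -0.27 and -0.46), and Tpt1 (-0.20, -0.32 and -0.42) fell in all 3. With mitochondrial and hemoglobin features left out, 8, 10 and 10 of the 16 rose and 0, 0 and 3 fell, where 27.1%, 38.4% and 41% of all features rose and 9.72%, 7.57% and 11.7% fell. Of 20 genes of mTOR signalling and translation control 4, 4 and 2 rose and 5, 5 and 7 fell, among them the repressor of cap-dependent translation Eif4ebp1 (-0.73, -0.95 and -0.86) and the regulator of such mRNAs Larp1 (0.23 to 0.25). Of the 20, 4, 8 and 6 rose and 4, 1 and 2 fell with mitochondrial and hemoglobin features left out, and the counts in either setting are to be read against the shares of all features given for the elongation factors.

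Coding sequences of 76 members ran from 75 to 1257 bases with a median of 453. With vehicle at day 45 the median genotype difference was 0.07 for 37 shorter and 0.06 for 39 longer members, and with JIB-04 at day 77 it was -0.10 and -0.15. The members lie on 19 chromosomes, 14 of them on chromosome 7.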

How the data were processed

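Each of the 23 libraries was poly(A) RNA from heart, made with a kit that does not mark strand. The deposited values are headed log2 FPKM; they hold exact zeros and no negative value and were read as log2(FPKM + 1), where plain FPKM had been assumed when the tests were planned. STAR 2.7.1a, Picard, GATK 4.1.2, Cufflinks 2.2.1 and GRCm38 are named, per the submitters' processing notes, and the annotation is not given in the sources used here. Depth is unknown, since the files give no counts, so no counting interval is given.

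A feature entered a fit where 3 or more of its libraries reached 1 FPKM, and the fit used limma 3.58.1 (R 4.3.3; intensity trend, empirical Bayes), with group as the only term, in 12 libraries at day 45, 11 at day 77 and all 23 for age. 12 comparisons were made, with p-values adjusted by Benjamini-Hochberg over all features, and scipy 1.17.1 gave exact permutation tests. 3 mitochondrial features listed at 0 in 13 libraries were left out as failed estimates, and 6 files held a blank line. The code was tested on simulated data. Alternatives were other scalings, a pseudocount of 0.1 in place of 1, no filter, no trend, other libraries in the fit, sex, a replicate block and leaving out each library. Positions come from GENCODE M21 and promoter windows from RefSeq.

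Members, gene lists and tests were chosen with earlier results of these data known. Named members are the forms with a trailing l and their parents, the 4 highest and 4 lowest per subunit, up to 4 each way per subunit and comparison among calls whose groups do not overlap, and up to 2 each way farthest from the members' median; from each list, up to 4 genes.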

Additional observations from a re-analysis of the deposited data

Results flagged for a closer look

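In the groups of 4 libraries, 72 sets of values were tested for a library far from the other 3, and 3 stood out, where chance gives about 1 in 20. In CnATg vehicle hearts at day 77, Rpl9 had a lowest value of 219.6 FPKM and Rps2 a highest value of 594 FPKM, each far from the other 3 libraries. In CnATg JIB-04 hearts at day 77, Rpl41 had a highest value of 625 FPKM, far from the others.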

How the results depend on the processing

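With mitochondrial and hemoglobin features left out, the genotype differences of some named members called under JIB-04 changed sign. Those of Rpl36 (0.056), Rpl7a (0.061) and Rplp0 (0.026) did so at day 45. Those of Rpl13a (0.014), Rpl5 (0.050), Rps15 (0.083), Rps25 (0.01) and Rps3 (0.067) did so at day 77. Rps15 at day 77 also did so after quantile normalization (0.011). With those features left out, 8 members rose with vehicle at day 45, 15 with JIB-04 at day 45 and 22 with JIB-04 at day 77, where 27.1%, 38.4% and 41% of all features rose, while 1 fell in each of the JIB-04 comparisons (7.57% and 11.7%); the medians were 0.17, 0.18 and 0.10, and those of JIB-04 in WT hearts and of the interaction -0.078 and 0.016. Quantile normalization gave 7 higher and 6 lower with vehicle at day 45, 5 higher with JIB-04 at day 45, 9 higher and 3 lower with JIB-04 at day 77 (median 0.020), and an interaction median of -0.042. With vehicle at day 45, median-ratio scaling gave 4 lower, the fit with other libraries 6 higher and sex as a covariate 5 higher. For each of these the cause was not tested. Leaving out 1 library gave 2 to 13 higher and 1 to 2 lower with vehicle at day 45, 1 to 3 higher and 2 to 12 lower with JIB-04 at day 45, and 1 to 3 higher (1 without replicate 1 of WT JIB-04) and 17 to 30 lower with JIB-04 at day 77. With the replicate number as a block, 3 rose and 1 fell, 2 rose and 6 fell, and 2 rose and 17 fell in the 3 genotype comparisons. The numbers do not pair the samples: deviations of same-numbered libraries correlated above 0.1 in 3 of 18 pairs at day 45 and in 0 of 10 at day 77. No member was called with JIB-04 or age under any alternative. Shares of all features are not given for the genotype counts under left-out libraries, the block, median-ratio scaling, other libraries or sex. Nor are they given for quantile normalization at day 45. These genotype counts therefore do not tell a change in the members from a change in all features. Of the counts, medians and ratios that answer a comparison 634 stayed within their limits and 29 moved. Of the named members' values 9 that were called changed sign, 70 lost and 48 gained a call, and 6465 kept their call or lack of one. Changes of sign among values without a call were not counted. The small groups and unknown depth limit what can be seen: the 95% interval of a member's genotype difference reached 0.18 to either side at day 45 (median).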
